A study of Mus musculus with 11 samples.

Results

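The protocadherin family was followed in RNA from the hypothalamus of adult mice. Its members were the genes of the deposited table whose symbol begins with Pcdh, which gave 63 of 14864 genes. Of these, 52 belong to the 3 gene clusters on chromosome 18 (11 Pcdha, 21 Pcdhb and 20 Pcdhg genes) and 11 are non-clustered. The GENCODE annotation of the same build (mm10, GRCm38) lists 70 protocadherin genes, and the other 7 (Pcdha4, Pcdha8, a second gene named Pcdha11, Pcdhb1, Pcdhga10, Pcdhgb8 and Pcdh12) are not analysed here. The row named Pcdha11 is ENSMUSG00000007440, which starts at 37005203 between Pcdha9 and Pcdha12.

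The series asked how loss of MYT1L, a zinc finger transcription factor of neurons, alters the transcriptome of this brain region. The WT group held 5 wild-type mice (2 females, 3 males) and the Het group 6 mice (3 females, 3 males). Het mice are given in the labels as heterozygous, with no further description of the mutated allele. All 11 mice were at postnatal days 60 to 70, and no treatment is given. Each library is one biological replicate of whole tissue, so fewer cells of a type and less RNA per cell cannot be told apart.

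Myt1l itself did not separate the groups: it was 76.3 ± 15.9 CPM (counts scaled to library size, SD, n = 5) in WT and 76.3 ± 26.9 CPM (SD, n = 6) in Het. An exact permutation test (two-sided, genotypes exchanged within each sex) gave p = 0.97, where 0.005 is the smallest value possible. The library labelled WT replicate 11 had the lowest value of its group, 51.1 CPM, and the library labelled Het replicate 9 had the highest of all, 130.0 CPM. On Myt1l RNA, these 2 libraries run opposite to what lower expression in Het would give. The labels do not say that the allele lowers this RNA, and a swap of labels was not tested. Several results are also given without these 2, called the libraries in doubt. Corrected counts, which are what remains of the reads after the correction made before deposit, summed to between 22921048 and 24941704 in each library. One such count was worth 0.0417 to 0.0423 CPM, a value that did not follow these totals, while the upper quartile was 5.47 on the log2 scale in all 11 libraries. Of the hypothalamic markers, Avp, Oxt, Hcrt and Pmch (vasopressin, oxytocin, orexin and melanin-concentrating hormone) had group means of 296 to 1233 CPM.

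Protocadherins are cell surface proteins of the cadherin superfamily, with a row of extracellular cadherin repeats, a single membrane span and a cytoplasmic tail. In neurons, each clustered gene is read from its own promoter, and the chosen sets of isoforms differ from cell to cell. The isoforms bind their own kind across cell contacts and serve self-recognition of neurites, survival of neurons and the arrangement of axons and dendrites. Pcdha and Pcdhg genes each join one variable first exon to constant exons that the whole cluster shares, while Pcdhb genes have no constant exons. The last genes of the Pcdha and Pcdhg clusters, Pcdhac1, Pcdhac2, Pcdhgc3, Pcdhgc4 and Pcdhgc5, are called the C-type genes and are less subject to random choice than the others. Non-clustered protocadherins are separate genes with roles in cell adhesion and the sorting of axons.

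RefSeq promoters (GRCm38.p6) were at hand for 9 non-clustered genes. The 250 bases before the start site are shown for 3 of the 4 members with the highest mean CPM, which is not divided by length. Pcdh7, the other of these 4, is not printed. The sequences run 5′ to 3′ on the strand of the gene. They are shown because MYT1-family zinc fingers are known to bind an AAGTT core. Capitals mark AAGTT or its reverse complement AACTT. The windows are chr14:93890680-93890929 (minus strand) for Pcdh9, chr14:84443313-84443562 (plus strand) for Pcdh17 and chr3:45378148-45378397 (plus strand) for Pcdh10.
Pcdh9: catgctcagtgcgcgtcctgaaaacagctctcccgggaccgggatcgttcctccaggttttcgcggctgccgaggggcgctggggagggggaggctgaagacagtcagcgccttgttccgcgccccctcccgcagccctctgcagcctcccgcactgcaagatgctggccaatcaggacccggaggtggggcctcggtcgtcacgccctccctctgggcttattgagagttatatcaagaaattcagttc
Pcdh17: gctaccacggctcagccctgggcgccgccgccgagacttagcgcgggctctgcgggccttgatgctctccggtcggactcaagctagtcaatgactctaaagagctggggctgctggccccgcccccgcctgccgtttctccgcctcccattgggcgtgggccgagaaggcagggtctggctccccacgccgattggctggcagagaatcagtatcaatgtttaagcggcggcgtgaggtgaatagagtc
Pcdh10: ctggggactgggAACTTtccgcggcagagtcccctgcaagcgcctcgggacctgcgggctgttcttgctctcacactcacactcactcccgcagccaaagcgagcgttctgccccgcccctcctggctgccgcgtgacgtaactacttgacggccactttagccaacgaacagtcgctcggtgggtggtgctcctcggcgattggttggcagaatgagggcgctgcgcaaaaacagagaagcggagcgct

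Searched on both strands over 250 bases before to 50 after the start, AAGTT was found in 6 of the 10 promoters of these 9 genes (Pcdh9 has 2 starts), against 39.3% of the 32851 promoters in the table. Pcdh10, Pcdh18, Pcdh7, Pcdh15, Pcdh20 and Pcdh19 held 1 match each, and Pcdh9, Pcdh17 and Pcdh8 held none. A match in so short a motif is a description of the letters only. The Pcdh17 promoter was 65.0% G or C with 26 CpG pairs, above the medians of 52.7% and 7 over all promoters.

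The clusters follow one another on the plus strand of chromosome 18: in mm10 the members of the Pcdha cluster span 36930184 to 37187661, those of the Pcdhb cluster 37294812 to 37524479 and those of the Pcdhg cluster 37661793 to 37841873. Pcdh1 lies downstream on the same chromosome, at 38185914 to 38212053. Pcdh8, Pcdh17, Pcdh20 and Pcdh9 share chromosome 14, Pcdh10 and Pcdh18 chromosome 3, and Pcdh11x and Pcdh19 the X chromosome, while Pcdh7 is on chromosome 5 and Pcdh15 on chromosome 10.

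Non-clustered members held most of the family's summed CPM. Their sum was 319 ± 34.5 CPM in WT (SD, n = 5), against 130 ± 9.82 CPM for the 52 clustered genes together. These sums are not divided by length, so they do not show which group had more transcripts. Per kilobase of exon that no other gene shares, Pcdh9 was the highest of the family in WT, at 11.5 ± 1.29 CPM per kb, and it was the highest non-clustered member in 11 of 11 libraries. Pcdh7 (6.09 ± 1.73 CPM per kb) and Pcdh17 (4.45 ± 0.482 CPM per kb) came next in WT. Over this length these 3 held the top 3 places in all 11 libraries. The value of Pcdh7 rests on the length used: 4932441J04Rik overlaps it on the opposite strand. With only same-strand overlaps taken off, Pcdh7 was at 4.81 CPM per kb in WT, and places by library were not counted over that length. The SD ranges of Pcdh7 and Pcdh17 overlap, so their order in WT is not clear beyond the spread. Pcdh20 was at 3.30, Pcdh10 at 2.65, Pcdh8 at 2.54, Pcdh19 at 2.12, Pcdh11x at 1.96 and Pcdh18 at 1.25 CPM per kb as WT means. Pcdh1 was at 0.410 and Pcdh15, a component of the tip links of hair cells, was lowest at 0.0992 CPM per kb in WT.

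**Figure D1:**
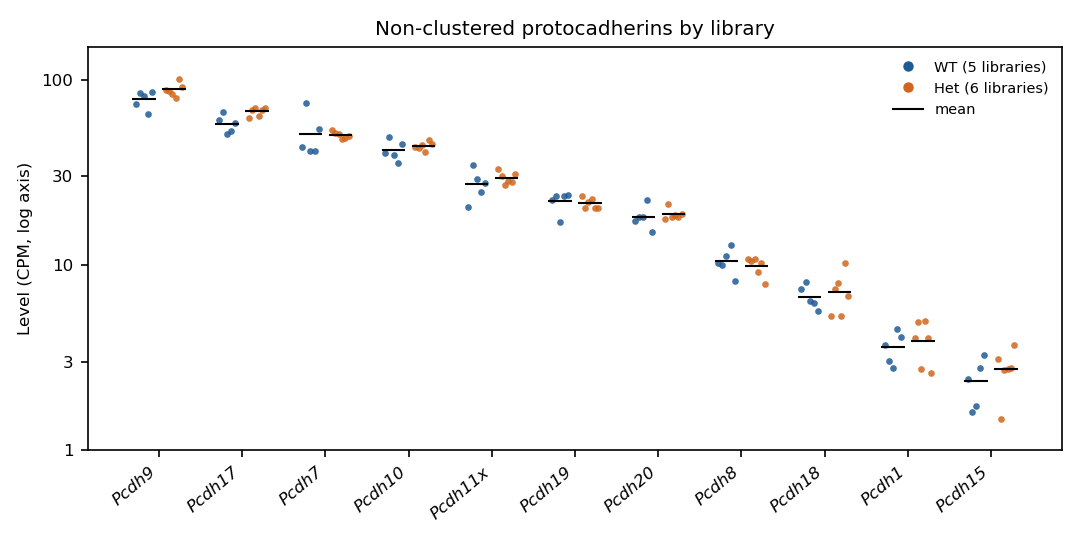
Level of the 11 non-clustered protocadherins in CPM (log axis) in each of 5 WT and 6 Het libraries, with the mean of each group as a bar. Pcdh9 and Pcdh17 lead, and Pcdh7 in WT replicate 3, at 75.1 CPM, stands above the other libraries, which reach at most 54.2 CPM.

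In the Pcdha cluster the C-type gene Pcdhac2 led, at 1.28 ± 0.302 CPM per kb in WT (SD, n = 5) and 1.68 ± 0.248 in Het (SD, n = 6). It was the highest Pcdha member in 6 of 11 libraries and among the top 3 in all 11. The alternate genes Pcdha2 (0.969 ± 0.396 CPM per kb in WT) and Pcdha9 (0.957 ± 0.507) followed, within 1 SD of each other. The other C-type gene, Pcdhac1, was the lowest of the cluster at 0.282 ± 0.203 CPM per kb in WT. Summed, the 11 Pcdha genes reached 18.5 ± 2.76 CPM in WT, of which Pcdhac2 held 20.9%.

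The Pcdhb cluster had one clear leader. Pcdhb9 was at 3.62 ± 0.650 CPM per kb in WT and was the highest Pcdhb member in 11 of 11 libraries, from 2.93 to 4.65 CPM per kb. Pcdhb7 (2.24 ± 0.305 CPM per kb) and Pcdhb20 (1.91 ± 0.562) followed in WT, with overlapping SD ranges. Pcdhb16 was lowest, at 0.185 ± 0.153 CPM per kb. Pcdhb12 stood at 1.63 CPM per kb over the 1107 bases that Gm37446 on the opposite strand does not share, and at 0.595 over its 3034 exon bases. Summed, the 21 Pcdhb genes gave 64.8 ± 3.77 CPM in WT, the largest sum of the 3 clusters. The sum is not divided by length, and Pcdhb genes have no shared constant exons, so such sums do not rank the clusters by transcripts.

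In the Pcdhg cluster the highest levels per kilobase of unshared exon were those of 2 C-type genes. Pcdhgc3 was at 2.87 ± 0.50 CPM per kb and Pcdhgc4 at 2.40 ± 0.566 in WT, and both were among the top 3 in all 11 libraries. The place of Pcdhgc3 rests on the length used: BC037039 overlaps Pcdhgc3 on the opposite strand, and with only same-strand overlaps taken off Pcdhgc3 was at 1.55 CPM per kb, below Pcdhgc4 and Pcdhgb6. Pcdhgb6, which is not a C-type gene, was at 1.59 ± 0.392 and Pcdhgc5 at 1.29 ± 0.445 CPM per kb. Pcdhga1, the first gene of the cluster, was lowest at 0.0740 ± 0.0672 CPM per kb, down to 0.0417 CPM, a single corrected count, in WT replicate 4. The 20 Pcdhg genes summed to 46.3 ± 5.74 CPM in WT, of which the 3 C-type genes gave 19.5 ± 3.84 CPM. A value as low as that of Pcdhga1 shows that reads from the shared constant exons were not counted in full to each gene. The sources used here do not say how such reads were counted.

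**Figure D2:**
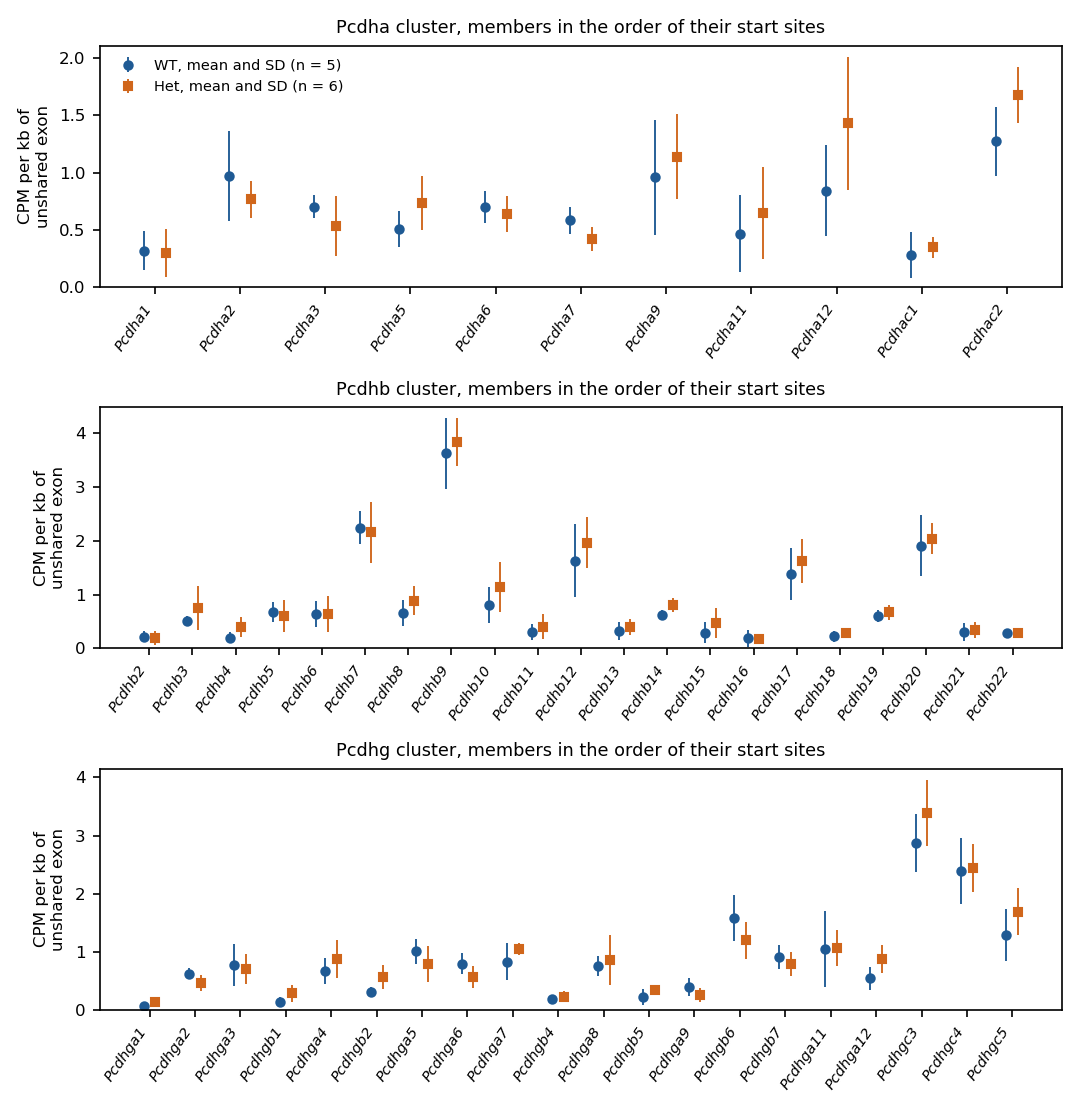
Level per kilobase of unshared exon (CPM per kb, mean and SD) of every Pcdha, Pcdhb and Pcdhg member in WT (n = 5) and Het (n = 6), in the order of their start sites. Pcdhac2, Pcdhb9 and the pair of Pcdhgc3 and Pcdhgc4 stand highest in their clusters over this length, while Pcdhga1 is near 0.

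Members differed in how much they varied between libraries of the same genotype and sex. The coefficient of variation (CV, the SD as a percentage of the mean) of tested members from 2 to 4 CPM had a median of 35.1%, against 28.1% for all 1331 genes at that level, and 12 of these 15 members were above the median of all genes. From 1 to 2 CPM the median of 22 members was 36.5%, against 37.7% for all genes, and from 4 to 8 CPM the median of 9 members was 22.8%, against 20.1%. Counting error alone would give about 12.1% from 2 to 4 CPM and 17.1% from 1 to 2 CPM. Pcdhb15 (69.4%) and Pcdhb2 (65.8%) varied most among Pcdhb genes, Pcdha11 (59.7%) and Pcdha1 (58.8%) among Pcdha genes, and Pcdhga1 (67.3%) and Pcdhgb1 (53.7%) among Pcdhg genes. Pcdhb2, Pcdha1, Pcdhga1 and Pcdhgb1 averaged below 1 CPM.

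The steadiest members were Pcdhb14 (CV 10.5%), Pcdhgc3 (13.1%) and Pcdhac2 (20.3%) in their clusters and Pcdh17 (8.64%) among the non-clustered genes. Pcdh15 (28.8%) and Pcdh1 (26.6%) varied most of the non-clustered genes, at low levels. Pcdh7 varied by 21.6% at 50.6 CPM, a level at which the median of all genes was 10.03%. Its WT values were 75.1, 43.3, 54.2, 41.3 and 41.1 CPM in replicates 3, 4, 6, 7 and 11, while the 6 Het libraries stayed between 47.9 and 53.1 CPM. WT replicate 3 set this spread.

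**Figure D3:**
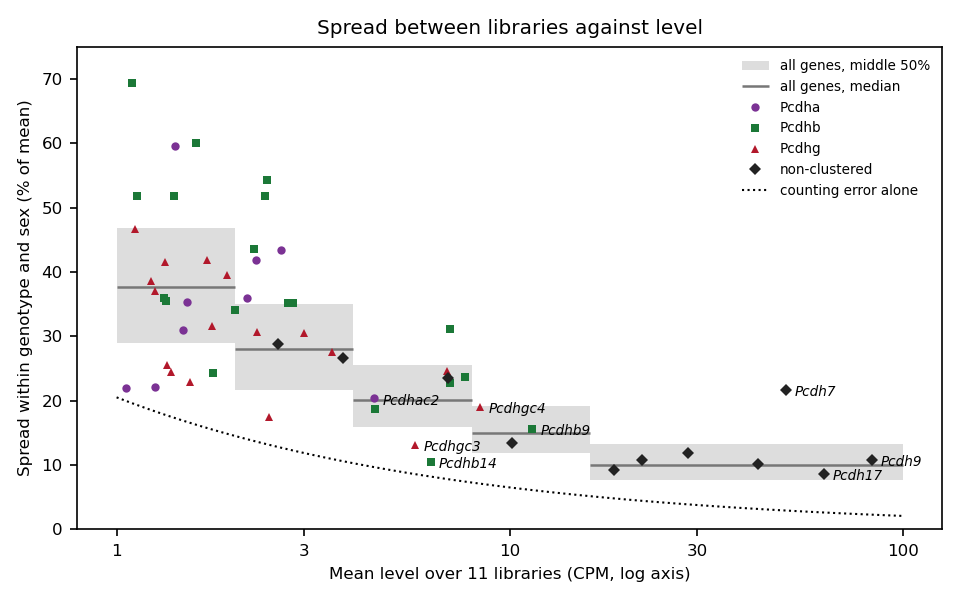
Spread between libraries within genotype and sex (CV in %) against mean level (CPM, log axis) for the 56 tested protocadherins, with the median and the middle 50% of all genes in each level range and the spread that counting error alone would give. Many clustered members near 2 to 4 CPM lie above the grey band, while Pcdhb14 lies near the counting line.

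Between the genotypes, no protocadherin passed the test. Genes averaging at least 1 CPM were tested with limma, with genotype and sex as terms, and p-values were adjusted by Benjamini-Hochberg over all 13184 genes. This kept 56 members (9 Pcdha, 19 Pcdhb, 17 Pcdhg and 11 non-clustered) and left out Pcdha1, Pcdhac1, Pcdhb2, Pcdhb16, Pcdhga1, Pcdhgb1 and Pcdhgb4. Of the 56, 0 passed, against 3.44% of all genes (2.3% higher in Het). At an unadjusted p under 0.05 there were 10 members, or 17.9%, against 22.3% of all genes. All 10 were higher in Het, where 10.6% of all genes were.

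Of the 56 members, 40 had a positive difference (higher in Het), or 71.4%, against 47% of all genes. The median log2 difference was 0.14, against -0.02 over all genes. By group, 16 of 19 Pcdhb, 5 of 9 Pcdha, 10 of 17 Pcdhg and 9 of 11 non-clustered genes had a positive difference, with medians of 0.25, 0.31, 0.11 and 0.07. Without the 2 libraries in doubt 0 members passed, 6 had an unadjusted p under 0.05, 39 were positive and the median was 0.12. In no member did the groups fail to overlap, against 2.02% of all genes with every Het library above every WT library and 1.33% with every one below. The 95% intervals of 7 members, all clustered, reached beyond a 2-fold difference, so a difference of that size is not excluded for them. The identifiers in the labels carry a prefix whose meaning is not given: in the 4 male libraries of prefix 14308 the median over members was 0.01, with 29 positive, and in the 6 libraries of prefix 14309 it was 0.21, with 40 positive. With the prefix as a block, 4 members had an unadjusted p under 0.05 by limma (20.7% of all genes did). In that fit 39 members were positive and the median was 0.11. With length and GC trends taken out, 6 members had such a p (16.8% of all genes did), 35 were positive and the median was 0.11.

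Pcdh17, an axon-guiding protocadherin of forebrain circuits, had the smallest p. Its values were 66.7, 60.2, 58.5, 51.0 and 52.8 CPM in WT replicates 3, 4, 6, 7 and 11, and 70.4, 64.0, 62.3, 68.9, 68.5 and 70.4 CPM in Het replicates 2, 4, 5, 7, 8 and 9. WT replicate 3 lay within the Het range, and the other WT libraries lay below it. The log2 difference was 0.22 ± 0.07 (SE), adjusted p = 0.1003 by limma. Without WT replicate 3 it was 0.28 with an adjusted p of 0.0217, and with limma-voom on the corrected counts, chosen after seeing the data, 0.29 with an adjusted p of 0.0230. Over 27 alternatives its adjusted p ran from 0.0217 to 0.687, with no change of sign. Without the 2 libraries in doubt the log2 difference was 0.18, adjusted p = 0.228 by limma.

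Pcdh9, an adhesion gene of broad expression in neurons, ran from 65.0 to 85.8 CPM in WT and from 79.8 to 101.2 CPM in Het. Its log2 difference was 0.18 ± 0.08 (SE; limma, unadjusted p = 0.0417, adjusted p = 0.203). The other non-clustered genes lay closer to 0. Pcdh11x had a log2 difference of 0.15, Pcdh15 of 0.16, Pcdh10 of 0.08, Pcdh20 and Pcdh1 of 0.07 and 0.06, Pcdh18 of 0.05 and Pcdh7 of 0.02, while Pcdh19, a homophilic adhesion protein, was at -0.04 and Pcdh8 at -0.06. Their adjusted p-values by limma ran from 0.396 to 0.931.

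Of the Pcdha genes, Pcdha12 was 2.45, 1.21, 0.797, 1.26 and 2.48 CPM in WT replicates 3, 4, 6, 7 and 11, and 2.20, 2.35, 1.38, 2.43, 4.29 and 4.03 CPM in Het replicates 2, 4, 5, 7, 8 and 9. Only Het replicates 8 and 9 exceeded every WT library. The log2 difference was 0.67 ± 0.26 (SE; limma, adjusted p = 0.136), and without Het replicate 5 it was 0.91 with an adjusted p of 0.0352 (0.0352 to 0.991 over 26 alternatives). Gm10545 overlaps Pcdha12 on the opposite strand. Pcdhac2 was 2.81 to 5.21 CPM in WT and 3.93 to 6.17 CPM in Het, which is 0.38 ± 0.17 on the log2 scale (SE; limma, adjusted p = 0.198). Pcdha5 differed by 0.41 (adjusted p = 0.311). Pcdha3 had the lowest value of the cluster, -0.40 (adjusted p = 0.358).

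Of the Pcdhb genes, Pcdhb14 was 5.90, 6.01, 5.96, 3.98 and 5.08 CPM in WT replicates 3, 4, 6, 7 and 11, and 5.53, 6.38, 7.34, 6.54, 8.42 and 8.06 CPM in Het replicates 2, 4, 5, 7, 8 and 9. Every Het library except replicate 2 was above every WT library. Its log2 difference was 0.37 ± 0.15 (SE; limma, adjusted p = 0.164). Pcdhb4, at 0.167 to 1.26 CPM in WT and 0.674 to 2.35 CPM in Het, differed by 0.66 ± 0.30 (SE; adjusted p = 0.204). Pcdhb8 differed by 0.39 (adjusted p = 0.342), and the abundant Pcdhb9 by 0.10 (adjusted p = 0.692).

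Of the Pcdhg genes, Pcdhga12 was 1.05 to 3.26 CPM in WT and 2.39 to 4.74 CPM in Het, which is 0.57 ± 0.23 on the log2 scale (SE; limma, adjusted p = 0.147). Gm26672 overlaps it on the opposite strand. Pcdhgb5 was 0.250 to 1.73 CPM in WT and 1.22 to 2.18 CPM in Het, a difference of 0.61 ± 0.25 (SE; adjusted p = 0.164). Pcdhgb2 differed by 0.56 ± 0.25 (SE; adjusted p = 0.194) and the C-type gene Pcdhgc5 by 0.43 ± 0.20 (SE; adjusted p = 0.212). Pcdhgc3 was at 0.25 and Pcdhgc4 at 0.07. Pcdhga6, Pcdhga9, Pcdhga5, Pcdhgb6 and Pcdhga2 were lower in Het on average, between -0.34 and -0.41, and none of them passed the test.

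**Figure D4:**
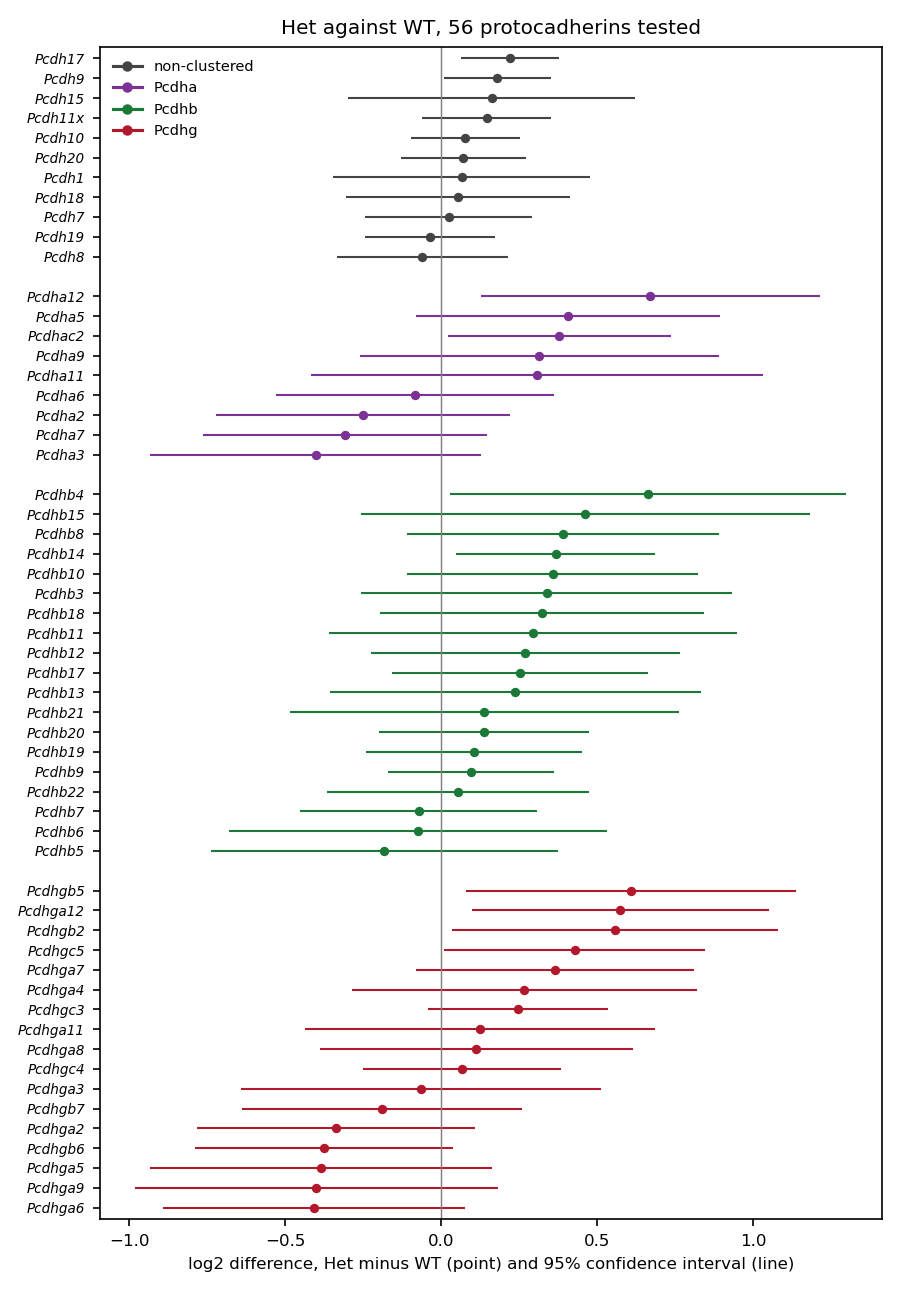
Log2 difference of Het minus WT with its 95% confidence interval for the 56 tested protocadherins, by group. The narrowest intervals are those of abundant non-clustered genes such as Pcdh17 and Pcdh9, while those of Pcdh15 and Pcdh1 are wider than that of the clustered Pcdhb9. In all, 40 points lie above 0, and no member passed the adjusted threshold.

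As sums, the 63 members were at 449 ± 34.4 CPM in WT (422 to 508) and 488 ± 15.2 CPM in Het (471 to 511). WT replicate 3 was the one WT library within the Het range. The Pcdhb sum was 64.8 ± 3.77 CPM in WT and 73.9 ± 7.16 CPM in Het, and 5 of 6 Het libraries were above every WT library. The Pcdha sum was 18.5 ± 2.76 CPM in WT and 21.0 ± 2.26 CPM in Het, and the Pcdhg sum 46.3 ± 5.74 and 50.3 ± 5.10 CPM, with overlapping libraries in both. The pair of Pcdhac genes summed to 4.58 ± 0.862 CPM in WT and 5.97 ± 0.771 CPM in Het. The non-clustered sum was 319 ± 34.5 CPM in WT and 343 ± 11.6 CPM in Het. Without the 2 libraries in doubt, the sum over all members was 454 ± 37.9 CPM in WT and 484 ± 11.6 CPM in Het. These sums are descriptions and were not tested.

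**Figure D5:**
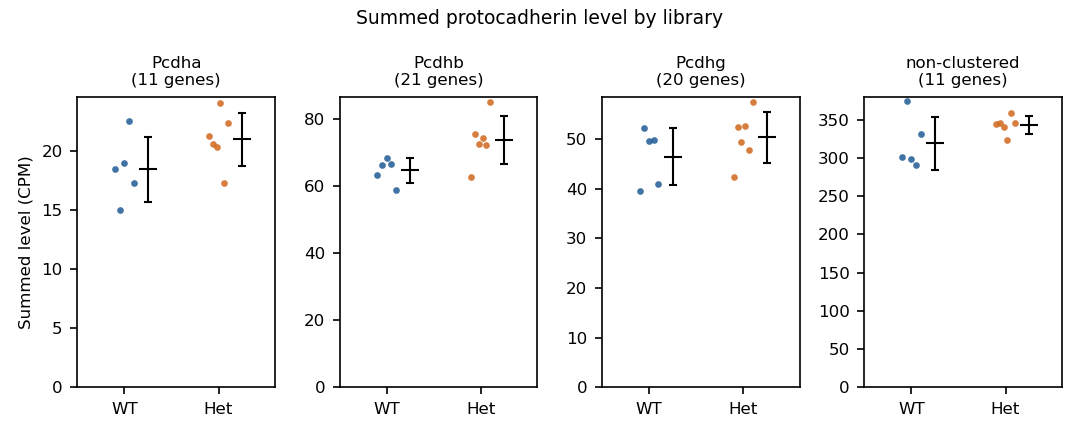
Summed level (CPM) of the Pcdha, Pcdhb, Pcdhg and non-clustered members in each WT and Het library, with mean and SD beside the points. The Pcdhb sum of 5 Het libraries exceeds the highest WT value of 68.6 CPM, and the other sums overlap more.

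Markers of the striatum, a forebrain region outside the hypothalamus, were higher in Het on average. All 14 of the striatal markers tested had a positive difference, 8 of them passed the test (limma), against 3.44% of all genes, and their median was 0.59. Their summed level was 1975 to 2524 CPM in WT and 2306 to 4165 CPM in Het. The upper end is Het replicate 9, one of the libraries in doubt, where Penk was 2423 CPM, against at most 1464 CPM in the other Het libraries. Marker results without the libraries in doubt are not given. Of 12 hypothalamic markers, 4 passed the test and fell (Avp, Oxt, Hcrt and Pmch), against 3.44% of all genes passing in either direction. A positive difference was seen in 1 of the 12, and the median of the 12 was -0.24. The sum of all 12 was 2742 to 3704 CPM in WT and 1906 to 3116 CPM in Het. With the mean striatal level as a covariate, 28 of the 56 protocadherins had a positive difference and their median was -2.36e-05. In this fit 2 of 13184 genes passed. The covariate is the mean of markers that were themselves higher in Het, so the fit cannot tell genotype and striatal level apart. Its SE for Pcdh17 was 0.13, against 0.07 without the covariate. In that fit Pcdha12 was at -0.02, Pcdhgc5 at -0.09 and Pcdhac2 at 0.09, while Pcdh17 was at 0.24 and Pcdh9 at 0.36, and none of these passed. Slc1a2 (astrocytes), Gpr17 (oligodendrocyte precursors) and Tcf7l2 (thalamus) rose and Dcn (meningeal fibroblasts) fell, 1 gene in each list, where 3.44% of all genes passed. Positive differences were seen in 3 of 7 astrocyte, 5 of 7 oligodendrocyte precursor, 6 of 9 thalamic and 0 of 7 meningeal fibroblast markers. The medians of these lists were -0.02, 0.22, 0.13 and -0.25. No marker of neurons, oligodendrocytes, microglia, endothelial cells, pericytes, tanycytes and ependyma, choroid plexus, or cortex and hippocampus passed.

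No member passed the test between males and females. This was 0 of 56, against 0.197% of all genes (26 genes), and 4 had an unadjusted p under 0.05, against 12.2% of all genes. Pcdhb10 was at 2.14 ± 0.595 CPM in males (SD, n = 6) against 3.62 ± 1.32 CPM in females (SD, n = 5), a log2 difference of -0.58 (limma, unadjusted p = 0.0184, adjusted p = 0.300). The X-linked Pcdh11x was at 30.4 ± 3.40 CPM in males and 26.2 ± 3.24 CPM in females, a log2 difference of 0.23 (limma, unadjusted p = 0.0341, adjusted p = 0.360). The other X-linked member, Pcdh19, is not among the 4. Without the 2 libraries in doubt 0 members passed as well, in this comparison and in the interaction.

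The genotype difference was also compared between the sexes. The interaction called 0 of 13184 genes by limma (0%), and 5 members had an unadjusted p under 0.05, against 4.65% of all genes (613 genes). Pcdhb13 had the smallest p: Het minus WT was 0.95 in females and -0.33 in males, an interaction of -1.27 ± 0.48 (SE; limma, unadjusted p = 0.0180, adjusted p = 0.982). For Pcdhgb5 it was 1.22 in females and 0.12 in males (limma, unadjusted p = 0.0229, adjusted p = 0.982). In 39 of the 56 members the 95% interval of the interaction reached beyond a 2-fold difference, so an interaction of that size is not excluded for them.

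Genes that work with protocadherins were looked at as lists. Of 26 tested cadherin superfamily genes outside the protocadherins, 2 rose and 0 fell, where 2.3% of all genes rose and 3.44% passed in either direction. In 21 of the 26 the difference was positive, against 47% of all genes, and the median was 0.12. Nothing particular to these lists is read from their counts, which are small. Celsr2, a seven-pass cadherin of planar polarity, was 14.0 to 18.3 CPM in WT and 20.3 to 26.5 CPM in Het (log2 difference 0.50 ± 0.10, SE; limma, adjusted p = 0.0126), with no overlap. Cdh9, a classical cadherin of synaptic partners, rose from 4.11 ± 0.679 to 6.64 ± 1.04 CPM (log2 difference 0.64; limma, adjusted p = 0.0312). Without the 2 libraries in doubt Celsr2 still passed (adjusted p = 0.0385, and 0.00527 to 0.377 over 27 alternatives), and Cdh9 did not (adjusted p = 0.0810, and 0.0176 to 0.685).

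Of 21 factors that shape chromatin at the clusters, such as CTCF and cohesin, 1 rose and 0 fell, a share near the 3.44% of all genes that passed, and the median was 0.06. Dnmt3a, a DNA methyltransferase known to methylate promoters, was 12.4 to 15.8 CPM in WT and 19.4 to 23.3 CPM in Het (log2 difference 0.54 ± 0.10, SE; limma, adjusted p = 0.00766; 0.0323 without the 2 libraries in doubt). Of 23 membrane partners, 1 rose and 0 fell, also near that share, and the median was 0.09. Abi2, a subunit of the WAVE complex that protocadherin tails recruit, was 69.9 to 75.4 CPM in WT and 88.5 to 95.4 CPM in Het (log2 difference 0.35 ± 0.05, SE; limma, adjusted p = 0.00550; 0.0182 without the 2 libraries in doubt). With the striatal covariate the log2 differences of Celsr2, Cdh9, Dnmt3a and Abi2 were 0.39, 0.58, 0.36 and 0.34. None of these genes passed in that fit by limma (adjusted p = 0.266, 0.302, 0.276 and 0.134), where 2 of 13184 genes did. Over 27 alternatives the adjusted p of Dnmt3a ran from 0.00329 to 0.341 and that of Abi2 from 0.00131 to 0.279. Of 14 tested genes beside the clusters that are not protocadherins, 0 passed, 3 were higher in Het on average and the median was -0.07.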

How the data were processed

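RNA-seq libraries from the hypothalamus of 5 WT and 6 Het mice were used. Per the submitters' processing notes, Trimmomatic, Bowtie2, STAR and HTSeq were run with mm10. The sources used here give neither versions nor strandedness. The deposited values are log2 CPM, corrected by RUVr (removal of unwanted variation from residuals), as the table is named. CPM were recovered by taking the common floor (-3.57) off the back-transformed values. Low values were whole multiples of 1 step in 100% of cases, within 0.02 of a whole number. Raw read depth is unknown, and tests on residual-corrected values give p-values that may be too small.

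The planned test assumed linear CPM, so it was run on log2(CPM + 0.5), which understates changes of low genes. Genes with a mean of at least 1 CPM were tested (13184 of 14864, with 1680 left out) with limma 3.58.1 in R 4.3.3 (lmFit, eBayes with trend; genotype and sex as terms, plus their product for the interaction). Tests were two-sided, with p-values adjusted by Benjamini-Hochberg over all genes, with a threshold of 0.05. The fit was tested on simulated data. Levels per kilobase used exon bases that no other gene of GENCODE shares (14856 of the table's genes were found). Named in each group were members past the threshold, the 3 smallest p, the 3 highest and the lowest level per kilobase, and the 2 largest and the smallest CV. All non-clustered members were named. For sex and interaction the 2 smallest p were named, and in other lists the genes past the threshold. Members and lists were chosen with earlier results of these data known. Replicates are biological per the series' design text.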

Additional observations from a re-analysis of the deposited data

Results flagged for a closer look

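A library stood far from the others of its group in 9 of 136 groups of libraries tested by Dixon's criterion, where chance alone gives about 6.8 at 1 in 20. In Het, Pcdha1 was 1.76 CPM in replicate 9 and Pcdhac1 1.34 CPM in replicate 5, both high, Pcdhga5 was 0.545 CPM in replicate 5, low, and Pcdh20 was 21.3 CPM in replicate 8, high. In WT, Pcdhb16 was 2.35 CPM in replicate 11, Pcdhb17 10.4 CPM in replicate 3 and Pcdhb20 10.2 CPM in replicate 7, all high, while Pcdh19 was 17.0 CPM in replicate 7, low. Myt1l was 130.0 CPM in the library labelled Het replicate 9, above the next Het value of 75.9 CPM.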

How the results depend on the processing

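Over 27 alternatives for Het against WT, 0 members passed in 24. With limma-voom on the corrected counts, chosen after seeing the data, 1 passed (Pcdh17), and leaving out 1 library gave 0 to 1 members (Pcdh17 without WT replicate 3, Pcdha12 without Het replicate 5). The number of genes passing, 453 as reported (303 higher, 150 lower), moved more: 200 with no sex term, 300 with the identifier prefix as a block, 6 and 16 within prefix 14308 and prefix 14309, 229 without the 2 libraries in doubt, 189 with 1 residual degree of freedom taken off, 2 with the striatal covariate, 207 with length and GC trends taken out and 742 with limma-voom. Leaving out 1 library gave 140 (without WT replicate 6) to 820 (without WT replicate 3). The split of higher against lower was 233 to 243 with each library centred on its median, 362 to 102 with quantile normalization, 166 to 34 with no sex term, 145 to 44 with 1 degree of freedom taken off and 683 to 59 with limma-voom. Numbers 4 and 7 occur in both genotypes. Libraries that share a number carry different prefixes, and those numbered 7 differ in sex, so the numbers were not taken as pairs. Their deviations correlated at 0.13 (number 4) and -0.09 (number 7), which alone cannot decide this. With the replicate block 46 genes and 0 members passed. For males against females, 4 genes passed in WT alone, 17 without the 2 libraries in doubt and 10 to 62 (without WT replicate 11) with 1 library left out, against 26. Per whole exonic length, Pcdhac2 was 0.656 and Pcdhgc3 0.951 CPM per kb in WT, since shared constant exons then count as length. The causes of the other shifts were not tested. Reads of genes overlapping on opposite strands cannot be told apart here.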
